A study of Drosophila melanogaster with 16 samples.

Results

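The genes described here are the small nuclear RNA (snRNA) genes of Drosophila melanogaster, chosen as every gene of the counts table whose FlyBase symbol starts with snRNA:. There were 31 of them among 17753 genes. They were grouped as 5 U1, 6 U2, 3 U4, 7 U5 and 3 U6 copies, 4 genes of the minor spliceosome (U11, U12, U4atac and U6atac) and 3 others (7SKa, U7 and LU). The name spliceosomal fits 28 of the 31, since 7SK binds and restrains the elongation kinase P-TEFb, and U7 acts in 3′ end formation of histone mRNA. A further annotated member, 7SKb, was not analysed here.

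RNA was counted in embryos of 4 genotypes at St7-8 (gastrulation and early germ band extension) and at NC14 (nuclear cycle 14, stage 5, when the embryo cellularises), with 2 libraries in each of 8 groups and 16 in all. The mutants were homozygous for a Jasper allele (wm4h;JasperSu113/JasperSu113, here Su113, and wm4h;JasperSu140/JasperSu140, here Su140) or for Su(var)3-906, an allele of Su(var)3-9 (here Su(var)3-9), each on wm4h. The control was wm4h;+/+. All groups carry wm4h, an inversion of the X that places the eye colour gene w beside heterochromatin. Jasper encodes a PWWP protein that works with the kinase JIL-1, and Su(var)3-9 a histone methyltransferase of heterochromatin. Eggs were collected over 1 h, followed by 2 h of ageing at 25 °C. The protocol describes batches of 50 hand-sorted embryos for NC14 and gives no separate ageing for St7-8. Whole embryos were used, so that fewer cells of a type and less RNA per cell cannot be told apart.

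The spliceosome removes introns from pre-mRNA. In its major form the U1 particle recognises the 5′ splice site and U2 the branch point, and the U4/U6.U5 tri-snRNP then joins and is rearranged into the active enzyme. The minor form uses U11, U12, U4atac and U6atac with the shared U5 for a rare class of introns. Most of these RNAs are transcribed by RNA polymerase II and processed by the Integrator complex, while U6 and 7SK are made by RNA polymerase III. Flies carry several copies of each major snRNA, scattered or in clusters, and the early embryo also inherits snRNA from the egg.

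Total counts were 43466130 to 92790237 per library. The 31 genes held 0.119 to 0.459% of them, and 0.0272 to 0.0455% without 7SKa. CPM is the count scaled to a common library size after TMM, and 3 counts correspond to 0.0299 to 0.0573 CPM per library. This limit covers counting error alone. The stage labels were set against marker genes. The summed level of 5 cellularization genes (nullo, Sry-alpha, bnk, halo and slam) was 5230 CPM in the library labelled wm4h St7-8 replicate 2. It was 2950 to 6740 CPM in the 8 NC14 libraries and 1660 CPM in wm4h St7-8 replicate 1. Sry-alpha had no counts in any library, and slam alone had 3950 CPM in wm4h St7-8 replicate 2. That library also had the lower sum of 6 segment and Hox genes of the pair (179 against 393 CPM). At St7-8 this sum was 196 and 74 CPM in Su113, 364 and 364 CPM in Su140 and 739 and 854 CPM in Su(var)3-9. At NC14 it was 94.4 and 103 CPM in Su113 and 44.2 and 42.3 CPM in Su140. In Su(var)3-9 at NC14 it was 181 and 268 CPM, against 196 and 222 CPM in wm4h. In the Su(var)3-9 St7-8 libraries the cellularization genes summed to 68.5 and 69.4 CPM. Muscle genes of late embryos (4 genes) summed to 243 and 1020 CPM in Su113 St7-8, to 34 and 959 CPM in Su140 St7-8, to 38.4 and 3.56 CPM in Su(var)3-9 St7-8 and to 23.7 and 1.78 CPM in wm4h St7-8, against at most 4.68 CPM at NC14. Ovary and adult markers (5 genes) summed to at most 1.38 CPM in any library. The part of these differences in the results at NC14 and at St7-8 was not tested. The mutant comparisons at St7-8 were therefore also fitted without wm4h St7-8 replicate 2, which left 1 snRNA gene called in Su113 and 1 in Su140 (U2:34ABa), and 2 in the Su(var)3-9 mutant (U2:34ABa and U1:95Cb), with 0.205%, 0.152% and 7.02% of all genes called by edgeR. Values without that library are given beside the main results below.

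The level of a gene is given per length of its annotated span where genes are compared, as CPM per kilobase. Across the 16 libraries 7SKa had a median of 4660 CPM per kb, U11 448 and U12 270. The most abundant copy of U1 was U1:95Cc at 162 CPM per kb. U4:39B had 114, U5:23D 95.6 and U4:38AB 90.0 CPM per kb. The U2 copies lay lower, between 0.483 (U2:38ABb) and 22.8 CPM per kb (U2:34ABb). The 3 U6 copies were near the limit of counting, with medians of 0.704 to 3.06 CPM per kb and at most 54 counts in any library. U6atac had a median of 8.5 counts and LU of 1 count. On this scale the minor-class U11 and U12 stood above every single copy of the major snRNAs. Sums over the copies of a class were not compared on this scale. How reads that fit several copies were counted is not stated. These RNAs are of 71 to 444 bases, and how completely the total RNA kit recovers RNA so short was not tested.

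The genes lay on chromosome arms 2L (16), 3R (9), 3L (4) and X (2) in dm6. Of the 31, 17 overlapped another annotated gene, 15 within an intron and 2 over an exon, with 11 on the strand of the other gene and 6 opposite. A cluster of 5 (U2:38ABa, U2:38ABb, U4:38AB, U5:38ABa and U5:38ABb) spans 5807 bases of an intron of sick. U5:23D and LU lie in introns of FASN2, U1:95Cb and U1:95Cc in CG34355, U4:39B in Atg18b, U4atac in cno, U7 in Eip63E and U6:96Aa in Esyt2. U11 lies opposite an intron of Fie, and U12 opposite one of Baldspot. The exonic overlaps are of U2:34ABc with asRNA:CR45330 and of U4:25F with lncRNA:CR44794, both on the opposite strand. The kit keeps the strand, but the strand setting of the counting and its treatment of reads that fit several copies are not stated in the labels. Values of single copies, and of the overlapping pairs, are therefore uncertain in how reads were divided. Class sums are given beside them. Such sums do not depend on a split among copies, but would lack any reads that the counting left out.

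The U2 copy U2:34ABa (FBgn0004191, 2L:13211925-13212116, minus strand) was close to the limit of counting in both Jasper mutants, present at a low level in the Su(var)3-9 mutant and abundant in wm4h. At NC14 it had 0.159 and 0.199 CPM in Su113, 0.202 and 0.168 CPM in Su140 and 1.70 and 1.59 CPM in Su(var)3-9, against 13.8 and 12.3 CPM in wm4h. At St7-8 it had 0.189 and 0.132 CPM in Su113, 0.219 and 0.258 CPM in Su140 and 4.47 and 3.64 CPM in Su(var)3-9, against 15.1 and 23.4 CPM in wm4h. The 4 genotypes fall in 3 steps that do not overlap at either stage, with the Jasper alleles together at the bottom. In counts, the 8 Jasper libraries held 7 to 20 reads of this copy. Relative to the wm4h mean, the mean level was 1.37% in Su113 and 1.42% in Su140 at NC14, and 0.834% and 1.24% at St7-8. The Su(var)3-9 mean was 12.6% of the wm4h mean at NC14 and 21.1% at St7-8.

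Each of these decreases passed the test across all genes (edgeR quasi-likelihood, Benjamini-Hochberg over 12398 genes, threshold 0.05). At NC14 the log2 fold change was -6.18 ± 0.39 in Su113 (SE, adjusted p = 3.21e-05), where it was the only one of 30 tested snRNA genes called, with 0.936% of all genes called. In Su(var)3-9 at NC14 it was -2.99 ± 0.33 (adjusted p = 0.00341), again the only member called, against 0.331% of all genes. That call ended without Su(var)3-9 NC14 replicate 1 or replicate 2 (-3.05 to -2.94, adjusted p of 0.0695 to 0.0866 by edgeR). In Su140 at NC14 it was -6.13 ± 0.39 (adjusted p = 3.47e-05), 1 of 5 members called against 9.56% of all genes.

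At St7-8 the log2 fold change of U2:34ABa was -6.86 ± 0.40 in Su113 (adjusted p = 1.39e-05 by edgeR), the only member called, with 2.85% of all genes called. It was -6.32 ± 0.39 in Su140 (adjusted p = 2.46e-05), 1 of 3 members called against 1.15% of all genes. It was -2.25 ± 0.32 in Su(var)3-9 (adjusted p = 0.000769), 1 of 7 members called against 24.8% of all genes. Without wm4h St7-8 replicate 2 the 3 values were -6.52, -5.98 and -1.90, with adjusted p of 0.000126, 0.000234 and 0.0104. In Su140 the call ended when the St7-8 libraries were fitted alone (adjusted p = 0.0628). The 3 mutants of a stage share their 2 wm4h libraries.

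**Figure D1:**
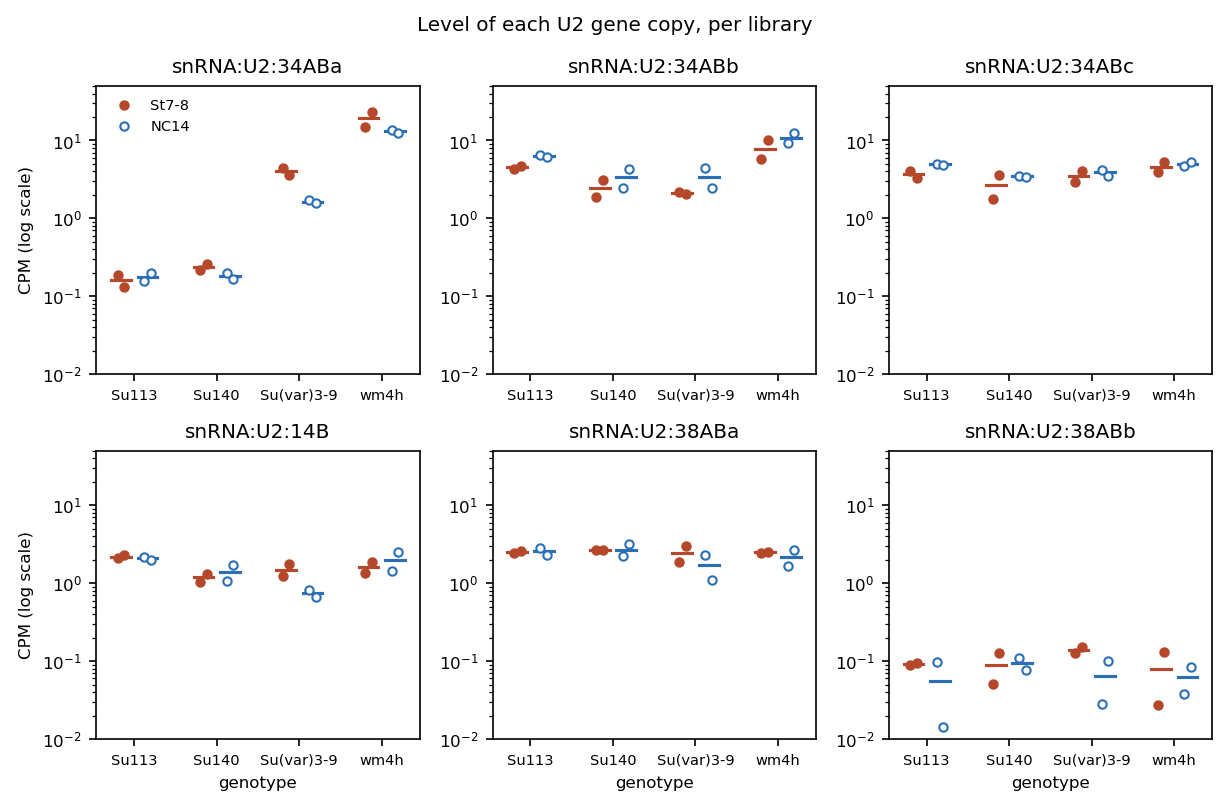
Level of the 6 U2 copies in CPM (log axis) by genotype, with filled points for St7-8, open points for NC14 and a bar at the mean of the 2 libraries of a group. U2:34ABa lies at 0.132 to 0.258 CPM in the Jasper alleles, 1.59 to 4.47 CPM in Su(var)3-9 and 12.3 to 23.4 CPM in wm4h.

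The mutants also differed from each other in U2:34ABa, in contrasts added after these values were seen. At NC14 the copy was lower in Su113 than in Su(var)3-9 by a log2 fold change of -3.19 ± 0.35 (adjusted p = 0.00327 by edgeR; 0.371% of all genes called) and in Su140 than in Su(var)3-9 by -3.14 ± 0.35 (0.000791; 18.6%). The first of these calls ended without Su113 NC14 replicate 1 or replicate 2 (-3.36 to -3.04, adjusted p of 0.0531 to 0.112). At St7-8 it was lower by -4.61 ± 0.37 in Su113 (0.000136; 35.9%) and by -4.08 ± 0.35 in Su140 (0.000226; 23.6%). Between the alleles, Su113 minus Su140, the difference was -0.05 ± 0.35 at NC14 (adjusted p = 0.98) and -0.54 ± 0.35 at St7-8 (adjusted p = 0.51), neither past the threshold at these low counts. Within Su(var)3-9 the copy was higher at St7-8 than at NC14 (1.30 ± 0.31, adjusted p = 0.0124), a call that ended without either NC14 library of that genotype or without its St7-8 replicate 1 (1.10 to 1.31, adjusted p of 0.0743 to 0.0964). The change of the mutant effect between stages was not past the threshold in Su113, Su140 or Su(var)3-9 (-0.68 ± 0.47, -0.19 ± 0.47 and 0.74 ± 0.43, and without wm4h St7-8 replicate 2 -0.34, 0.16 and 1.09).

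Of the 3 genes nearest to U2:34ABa, 1 was called lower in 1 mutant comparison. The protein-coding gene CG15482 lies 111 bases away and had 1.29 ± 0.105 CPM in Su140 against 5.62 ± 2.27 CPM in wm4h at NC14 (SD, n = 2 each; log2 fold change -2.13 ± 0.41, adjusted p = 0.0109 by edgeR). That call ended without either Su140 library or wm4h NC14 replicate 2 (-2.21 to -1.64, adjusted p of 0.0553 to 0.0956). It was not called in the other 5 mutant comparisons, with log2 fold changes of -1.10 to -0.51. The leucine-rich repeat gene kek4 lies 219 bases away on the other side and was not called in any of the 6 (-1.86 to 0.45), at 0.19 ± 0.214 CPM in wm4h at NC14. Pect, which encodes an enzyme of phospholipid synthesis 1097 bases away, was not called either (-0.66 to 0.60). The genes outside the snRNA set whose log2 CPM most resembled U2:34ABa over the 16 libraries were Dscam2 (Pearson r = 0.96), Tsp26A (0.933) and CG15236 (0.927), given as a description over libraries that share genotype and scaling. For U1:95Cb it was CG10702 (0.95), for U2:34ABb CG41284 (0.951), for U1:95Ca lncRNA:CR43989 (0.944), for U1:82Eb CG2993 (0.913), for U11 CG18661 (0.869), for U5:63BC CG6978 (0.842) and for U5:38ABb CR43100 (0.802).

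The sister copy U2:34ABb lies 3723 bases from U2:34ABa (FBgn0004192, 2L:13215839-13216030, plus strand). At NC14 it had 6.43 and 6.14 CPM in Su113, 2.47 and 4.30 CPM in Su140 and 4.41 and 2.43 CPM in Su(var)3-9, against 9.23 and 12.5 CPM in wm4h. At St7-8 it had 4.36 and 4.73 CPM in Su113, 1.90 and 3.07 CPM in Su140 and 2.16 and 2.03 CPM in Su(var)3-9, against 5.72 and 10.0 CPM in wm4h. All mutant libraries lay below both wm4h libraries of their stage. Of all genes tested, 22 to 30.2% lay below wm4h in this way in a mutant at NC14 and 24.5 to 31.4% at St7-8. U2:34ABb was called lower in Su140 at NC14 (-1.68 ± 0.42, adjusted p = 0.0294) and in Su(var)3-9 at St7-8 (-1.91 ± 0.42, adjusted p = 0.0076 by edgeR). The first call ended without any 1 of its 4 libraries (-2.13 to -1.33, adjusted p of 0.084 to 0.199), and the second without either Su(var)3-9 library or wm4h St7-8 replicate 2 (-1.96 to -1.45, adjusted p of 0.0532 to 0.0922). In Su113 it stood at -0.79 ± 0.41 at both stages and was not called.

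The other 4 U2 copies were called in no comparison of genotype or stage. U2:34ABc had 1.80 to 5.27 CPM over the 16 libraries, U2:38ABa 1.11 to 3.20, U2:14B 0.660 to 2.51 and U2:38ABb 0.0142 to 0.154. Of all counts assigned to U2, U2:34ABa held 0.945 to 1.43% in Su113, 1.31 to 2.85% in Su140 and 12.6 to 34.9% in Su(var)3-9, against 34.9 to 54.1% in wm4h. The sum over all U2 copies at NC14 was 16.8 and 15.4 CPM in Su113, 9.57 and 12.9 CPM in Su140 and 13.5 and 9.44 CPM in Su(var)3-9, against 30.9 and 35.4 CPM in wm4h. At St7-8 it was 13.2 and 13.2 CPM in Su113, 7.67 and 11.1 CPM in Su140 and 12.8 and 14.7 CPM in Su(var)3-9, against 28.6 and 43.2 CPM in wm4h. Every mutant library had a smaller U2 sum than both wm4h libraries of its stage. Of all genes, 22 to 31.4% lay below wm4h in this way per mutant comparison.

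The U2 sum was called lower in 5 of the 6 mutant comparisons by the same edgeR fit over the 12379 rows of the table with class sums. The log2 fold changes were -1.56 ± 0.27 in Su140 (adjusted p = 0.00785) and -1.53 ± 0.27 in Su(var)3-9 (0.049) at NC14, and at St7-8 -1.44 ± 0.27 in Su113 (0.0193), -1.94 ± 0.28 in Su140 (0.00878) and -1.38 ± 0.27 in the Su(var)3-9 mutant (0.00422). In Su113 at NC14 it was -1.04 ± 0.27 (adjusted p = 0.113). Of all rows of that table, 0.905% were called in Su113, 9.54% in Su140 and, for Su(var)3-9, 0.331% at NC14, and 2.88%, 1.14% and 24.8% at St7-8. Between the alleles, Su113 minus Su140, the U2 sum differed by 0.52 ± 0.27 at NC14 (adjusted p = 0.28; 3.01% of rows called) and by 0.49 ± 0.27 at St7-8 (0.364; 2.4%), neither past the threshold. Without U2:34ABa in the sum, an alternative added after the values were seen, no call was left: the log2 fold changes were -0.33, -0.86 and -1.03 at NC14 and -0.35, -0.87 and -0.78 at St7-8 in Su113, Su140 and Su(var)3-9, with adjusted p of 0.0798 or more. Without wm4h St7-8 replicate 2 the 3 values at St7-8 were -0.06, -0.57 and -0.48. The other 5 copies together had 16.7 and 15.2 CPM in Su113, 9.37 and 12.7 CPM in Su140 and 11.8 and 7.85 CPM in Su(var)3-9 at NC14, against 17.1 and 23.0 CPM in wm4h.

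Single libraries decided some of these calls. The St7-8 calls of the U2 sum ended without wm4h St7-8 replicate 2 in Su113 (-1.12, adjusted p = 0.176), Su140 (-1.61, 0.0721) and Su(var)3-9 (-1.06, 0.0574). That in Su113 also ended without Su113 St7-8 replicate 2 (-1.28, adjusted p = 0.154). At NC14 the call in Su140 ended without its replicate 1 (-1.42, adjusted p = 0.0766), and that in Su(var)3-9 without any 1 of its 4 libraries (-1.83 to -1.29, adjusted p of 0.0561 to 0.505).

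**Figure D2:**
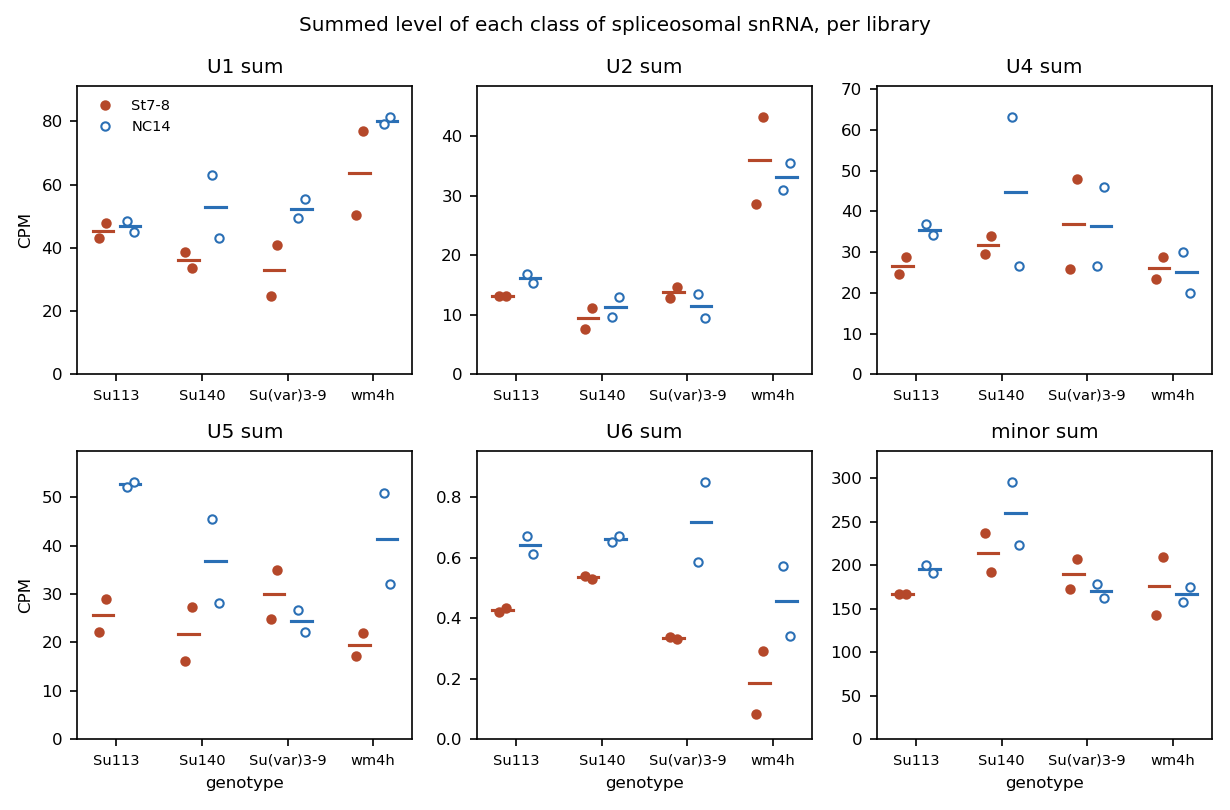
Summed CPM of the copies of each class by genotype, with filled points for St7-8, open points for NC14 and a bar at the mean of the 2 libraries of a group; each axis starts at 0. The U2 sum is 7.67 to 16.8 CPM in all mutant libraries and 28.6 to 43.2 CPM in wm4h.

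U1 recognises the 5′ splice site by base pairing. Of its 5 copies, 3 were called lower in at least 1 of the 6 mutant comparisons, as were 22.4% of all genes, and the most abundant, U1:95Cc, was called in none. U1:82Eb (FBgn0004183, 3R:4947933-4948096, minus strand) had at NC14 6.31 and 5.42 CPM in Su113, 6.32 and 6.68 CPM in Su140 and 9.65 and 8.78 CPM in Su(var)3-9, against 15.5 and 20.5 CPM in wm4h. At St7-8 it had 5.05 and 8.06 CPM in Su113, 3.24 and 4.84 CPM in Su140 and 3.87 and 6.25 CPM in Su(var)3-9, against 10.4 and 18.0 CPM in wm4h. No mutant library reached the lower wm4h library of its stage. In a single mutant, 22 to 30.2% of all genes lay below wm4h in this way at NC14 and 24.5 to 31.4% at St7-8. The copy was called lower in Su140 at NC14 (-1.47 ± 0.36, adjusted p = 0.0281 by edgeR) and at St7-8 (-1.81 ± 0.36, adjusted p = 0.0396), and in Su(var)3-9 at St7-8 (-1.49 ± 0.36, adjusted p = 0.0116). In Su113 it stood at -1.62 ± 0.36 at NC14 (adjusted p = 0.0662) and -1.12 ± 0.36 at St7-8 (0.108), and in Su(var)3-9 at NC14 at -0.96, none past the threshold.

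U1:95Cb (FBgn0004186, 3R:23827870-23828033, plus strand, in an intron of CG34355) had at NC14 8.28 and 6.70 CPM in Su113, 7.50 and 8.66 CPM in Su140 and 8.98 and 8.69 CPM in Su(var)3-9, against 15.9 and 21.8 CPM in wm4h. At St7-8 it had 6.28 and 6.66 CPM in Su113, 6.09 and 5.77 CPM in Su140 and 2.78 and 4.94 CPM in Su(var)3-9, against 11.3 and 16.3 CPM in wm4h. Again the mutant and wm4h libraries of a stage did not overlap. Of all genes, 22 to 31.4% lay below wm4h in this way per mutant comparison. It was called lower in Su140 at NC14 (-1.22 ± 0.30, adjusted p = 0.0286 by edgeR) and in Su(var)3-9 at St7-8 (-1.84 ± 0.31, adjusted p = 0.00181). The Su(var)3-9 call held without each of its 4 libraries, and was -1.55 (adjusted p = 0.0215) without wm4h St7-8 replicate 2. In Su(var)3-9 the copy was also lower at St7-8 than at NC14 (-1.19 ± 0.30, adjusted p = 0.0158), a call that ended without either NC14 library of that genotype or without its St7-8 replicate 1 (-1.22 to -0.88, adjusted p of 0.0513 to 0.115). The host gene CG34355 was called in none of the 6 mutant comparisons (log2 fold changes of -0.93 to 2.67).

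U1:95Ca (FBgn0004185, 3R:23859467-23859630, minus strand) had at St7-8 3.99 and 5.11 CPM in Su113, 1.88 and 2.10 CPM in Su140 and 1.72 and 2.25 CPM in Su(var)3-9, against 4.84 and 7.65 CPM in wm4h. At NC14 it had 4.87 and 4.30 CPM in Su113, 2.61 and 2.82 CPM in Su140 and 3.34 and 2.61 CPM in Su(var)3-9, against 5.14 and 7.01 CPM in wm4h. Su113 lay close to wm4h, and overlapped it at St7-8. Su140 and Su(var)3-9 lay below both wm4h libraries, as did 22 to 31.4% of all genes per comparison. It was called lower at St7-8 in Su140 (-1.65 ± 0.34, adjusted p = 0.0439 by edgeR) and in Su(var)3-9 (-1.65 ± 0.34, adjusted p = 0.0055). At St7-8 it was higher in Su113 than in Su(var)3-9 (1.19 ± 0.34, adjusted p = 0.0178), and Su113 minus Su140 was 1.19 ± 0.34 (adjusted p = 0.0899). The first of these ended without Su113 replicate 2 or Su(var)3-9 replicate 1 of that stage (1.13 to 1.19, adjusted p of 0.0575 to 0.0835).

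Most U1 calls rested on all libraries being present. At NC14 the calls of U1:82Eb and U1:95Cb in Su140 ended without any 1 of their 4 libraries (U1:82Eb -1.65 to -1.25, adjusted p of 0.0789 to 0.17; U1:95Cb -1.43 to -0.98, 0.0701 to 0.172). At St7-8 the calls of U1:82Eb and U1:95Ca in Su140 ended without either Su140 library or wm4h replicate 2 (U1:82Eb -2.13 to -1.37, adjusted p of 0.107 to 0.33; U1:95Ca -1.74 to -1.28, 0.124 to 0.357). In Su(var)3-9 at St7-8 the calls of the same pair ended without Su(var)3-9 replicate 1 or wm4h replicate 2 (U1:82Eb -1.19 to -1.04, adjusted p of 0.116 to 0.145; U1:95Ca -1.48 to -1.29, 0.0585 to 0.0703).

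**Figure D3:**
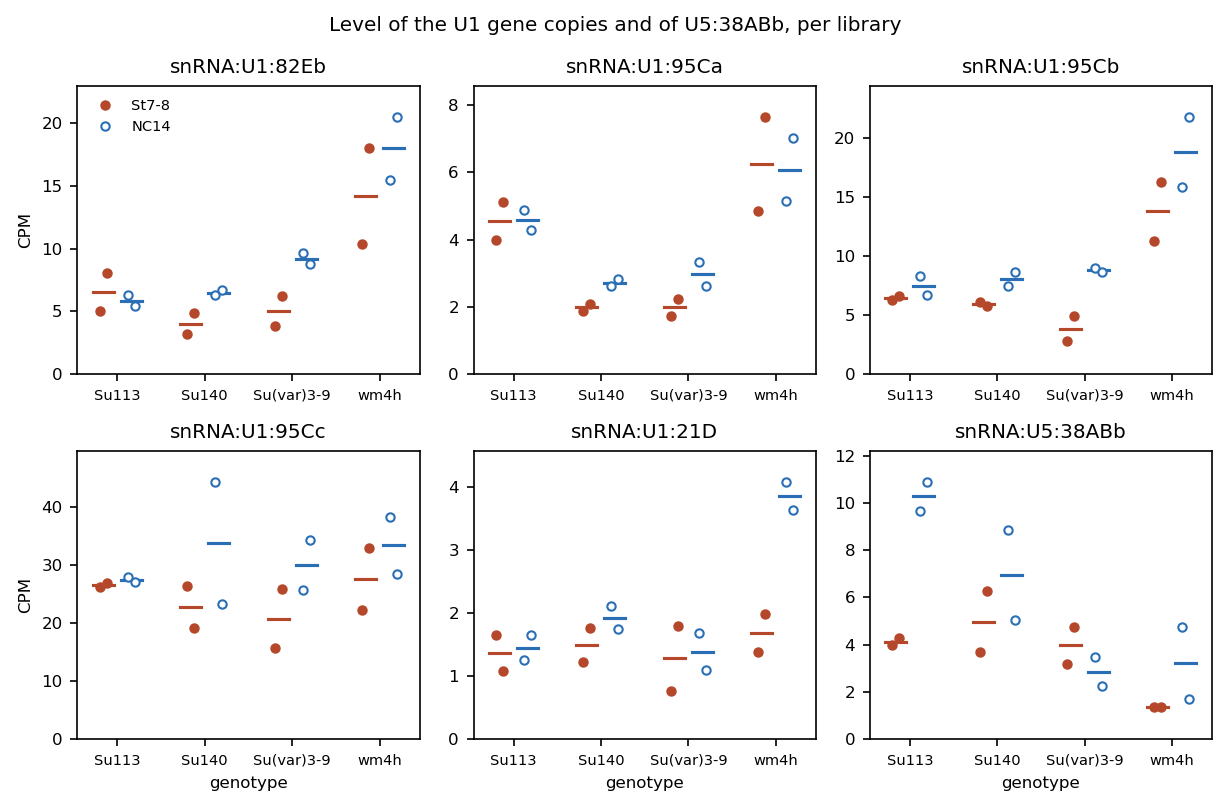
Level of the 5 U1 copies and of U5:38ABb in CPM by genotype, with filled points for St7-8, open points for NC14 and a bar at the mean of the 2 libraries of a group; each axis starts at 0. U1:82Eb and U1:95Cb are lower in every mutant library than in both wm4h libraries of the same stage. Per mutant comparison, 22 to 31.4% of all genes lie below wm4h in this way. U1:95Cc spans 15.7 to 44.3 CPM with the genotypes intermixed.

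U1:95Cc lies 1373 bases from U1:95Cb in the same intron and on the same strand, and held the largest part of the U1 counts. It had 15.7 to 44.3 CPM over the 16 libraries and log2 fold changes of -0.57 to 0.22 over the 12 comparisons of genotype, stage and allele, with an adjusted p of 0.195 or more. U1:21D, at 0.763 to 4.09 CPM, was not called either. The U1 sum at NC14 was 48.6 and 45.1 CPM in Su113, 62.9 and 43.1 CPM in Su140 and 49.4 and 55.3 CPM in Su(var)3-9, against 79.0 and 81.4 CPM in wm4h. At St7-8 it was 43.0 and 47.9 CPM in Su113, 38.7 and 33.6 CPM in Su140 and 24.8 and 41.0 CPM in Su(var)3-9, against 50.3 and 76.8 CPM in wm4h. All mutant sums were below both wm4h sums of their stage, as 22 to 31.4% of all genes were per mutant comparison. The decrease passed the test only in Su(var)3-9 at St7-8 (-0.95 ± 0.26, adjusted p = 0.0218 by edgeR), and not without Su(var)3-9 replicate 1 or wm4h replicate 2 of that stage (-0.64 to -0.61, adjusted p of 0.175 to 0.237). In the other 5 comparisons the U1 sum stood at -0.81 to -0.48 with an adjusted p of 0.148 or more.

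U5 sits at the centre of both spliceosomes and aligns the exons. Of its 7 copies, 2 were called higher in Su(var)3-9 at St7-8, as were 8.94% of all genes. U5:63BC (FBgn0003938, 3L:3090801-3090923, plus strand) had 6.59 and 7.24 CPM in Su(var)3-9 at St7-8, against 1.99 and 1.03 CPM in wm4h, with 2.05 and 2.71 CPM in Su113 and 0.631 and 3.68 CPM in Su140. The log2 fold change in Su(var)3-9 was 2.19 ± 0.64 (adjusted p = 0.0271 by edgeR). U5:38ABb (FBgn0043021, 2L:19816414-19816540, plus strand, in an intron of sick) had 3.98 and 4.26 CPM in Su113, 3.69 and 6.26 CPM in Su140 and 3.18 and 4.76 CPM in Su(var)3-9 at St7-8, against 1.34 and 1.35 CPM in wm4h. All mutant libraries of that stage were above wm4h, as were 18.2 to 33.9% of all genes per mutant comparison.

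The rise of U5:38ABb passed the test in Su(var)3-9 (1.56 ± 0.49, adjusted p = 0.0376 by edgeR) and not in Su113 (1.61 ± 0.49, 0.0976) or Su140 (1.89 ± 0.50, 0.0915). The call ended without any 1 of its 4 libraries (1.21 to 1.81, adjusted p of 0.0733 to 0.217). That of U5:63BC ended without either Su(var)3-9 library or wm4h St7-8 replicate 2 (1.79 to 2.24, 0.0916 to 0.233). At NC14 U5:38ABb had 9.68 and 10.9 CPM in Su113, 8.84 and 5.06 CPM in Su140 and 3.46 and 2.26 CPM in Su(var)3-9, against 4.74 and 1.68 CPM in wm4h. The host sick was not called in any mutant comparison (-0.39 to 0.89), and the cluster's U2:38ABa, U4:38AB and U5:38ABa were not called either.

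The U5 sum was 22.1 and 29.0 CPM in Su113, 16.2 and 27.4 CPM in Su140 and 24.9 and 34.9 CPM in Su(var)3-9 at St7-8, against 17.1 and 22.0 CPM in wm4h. At NC14 it was 52.2 and 53.2 CPM in Su113, 45.4 and 28.1 CPM in Su140 and 26.7 and 22.1 CPM in Su(var)3-9, against 50.8 and 32.1 CPM in wm4h. None of the 6 mutant comparisons of this sum passed the test (-0.77 to 0.61). Without wm4h St7-8 replicate 2 those at St7-8 were 0.57 in Su113, 0.34 in Su140 and 0.80 for Su(var)3-9. The change of the Su(var)3-9 effect between stages was 1.38 ± 0.46 for the U5 sum, with an adjusted p of 0.159 by edgeR and 1.85% of rows called, against 0.0889% for that change in Su113.

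U4 escorts U6 into the spliceosome by pairing with it. The U4 sum at NC14 was 36.8 and 34.1 CPM in Su113, 63.2 and 26.5 CPM in Su140 and 26.5 and 46.1 CPM in Su(var)3-9, against 30.1 and 20.0 CPM in wm4h. The libraries of Su140 and of Su(var)3-9 differed widely from each other. No U4 copy was called in any comparison. U4:38AB had 28.7 and 12.8 CPM in Su140 against 9.94 and 6.75 CPM in wm4h at NC14 (1.31 ± 0.43, adjusted p = 0.0748 by edgeR), and U4:39B, at 12.0 to 34.1 CPM, correlated with it at r = 0.77 over the 16 libraries. U4:25F had 0.112 to 1.16 CPM.

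U6 forms the catalytic core with U2. Its 3 copies lie together at 96A and summed to 0.673 and 0.612 CPM in Su113, 0.653 and 0.673 CPM in Su140 and 0.587 and 0.851 CPM in Su(var)3-9 at NC14, against 0.573 and 0.341 CPM in wm4h. At St7-8 they summed to 0.419 and 0.435 CPM in Su113, 0.540 and 0.529 CPM in Su140 and 0.339 and 0.332 CPM in Su(var)3-9, against 0.0820 and 0.292 CPM in wm4h. The mutant libraries were above both wm4h libraries at both stages, as were 18.2 to 33.9% of all genes per mutant comparison. No comparison passed the test for the sum (0.49 to 1.51, adjusted p of 0.22 or more by edgeR) or for a copy. Without wm4h St7-8 replicate 2 the sum stood at 2.35 ± 0.70 in Su113, 2.68 ± 0.71 in Su140 and 2.01 ± 0.70 for Su(var)3-9 at St7-8, with adjusted p of 0.119 to 0.301. U6:96Aa lies in an intron of Esyt2, which encodes a membrane tethering protein and was higher in Su(var)3-9 at St7-8 (6.17 ± 1.39 against 0.842 ± 0.0654 CPM in wm4h; SD, n = 2 each; 2.87 ± 0.72, adjusted p = 0.013 by edgeR). That call ended without Su(var)3-9 replicate 1 or either wm4h library of that stage (2.61 to 2.95, adjusted p of 0.0504 to 0.125). U6:96Aa itself had 0.113 and 0.118 CPM in Su(var)3-9 there, against 0 and 0.0265 CPM in wm4h (adjusted p = 0.0827).

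Of the minor class, U11 pairs with the 5′ splice site and U12 with the branch point of minor introns. U11 (FBgn0083987, 3L:3893056-3893330, minus strand) had at NC14 124 and 129 CPM in Su113, 170 and 155 CPM in Su140 and 111 and 87.0 CPM in Su(var)3-9, against 105 and 104 CPM in wm4h. It was called higher in Su140 (0.63 ± 0.18, adjusted p = 0.0483 by edgeR), a call that ended without any 1 of the 4 libraries (0.56 to 0.70, adjusted p of 0.131 to 0.211). In the added contrast it was also higher in Su140 than in Su(var)3-9 (0.72 ± 0.18, adjusted p = 0.0209), which ended without either Su140 library or Su(var)3-9 replicate 2 (0.56 to 0.79, adjusted p of 0.0781 to 0.233). At St7-8 it had 109 and 107 CPM in Su113, 164 and 130 CPM in Su140 and 123 and 137 CPM in Su(var)3-9, against 89.8 and 124 CPM in wm4h, with no call (0.01, 0.47 and 0.28, and without wm4h St7-8 replicate 2 0.25, 0.71 and 0.52).

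U12 had 44.9 to 122 CPM, with the highest value in Su140 NC14 replicate 1, and was called in no comparison. U4atac had at NC14 6.67 and 5.51 CPM in Su113 and 3.37 and 2.02 CPM in Su140, a log2 fold change of 1.18 ± 0.33 between the alleles with an adjusted p of 0.0705 by edgeR. U6atac had 0.0273 to 0.268 CPM. Over the 16 libraries the 4 minor RNAs summed to 143 to 296 CPM, of which U11 held a median of 64.4% and U12 of 33.4%.

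The polymerase III transcript 7SKa (FBgn0065099, 3R:7474553-7474996, minus strand) was the most abundant member. At St7-8 it had 2000 and 1730 CPM in Su113, 2540 and 2450 CPM in Su140 and 3880 and 3190 CPM in Su(var)3-9, against 2220 and 2600 CPM in wm4h. At NC14 it had 2040 and 1880 CPM in Su113, 2090 and 2050 CPM in Su140 and 2240 and 1610 CPM in Su(var)3-9, against 1000 and 1840 CPM in wm4h. The 2 Su(var)3-9 St7-8 libraries were the highest of the 16. The gene was higher in them than at NC14 in Su(var)3-9 (0.87 ± 0.25, adjusted p = 0.0247 by edgeR), a call that ended without any 1 of the 4 libraries (0.65 to 1.09, adjusted p of 0.0527 to 0.174). In the added contrast it was lower in Su113 than in Su(var)3-9 at St7-8 (-0.92 ± 0.25, adjusted p = 0.0132), which ended without Su113 replicate 2 or either Su(var)3-9 library (-0.87 to -0.60, 0.0605 to 0.157). It was not called in any mutant against wm4h. For Su(var)3-9 at St7-8 it stood at 0.55, and at 0.66 without wm4h St7-8 replicate 2.

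Several other classes of noncoding RNA were high in the same 2 libraries. The signal recognition particle RNA summed to 267 and 215 CPM in Su(var)3-9 at St7-8, against 55.1 to 119 CPM in the other 14 libraries. RNase MRP RNA had 4170 and 5120 CPM against 2610 to 3820, RNase P RNA 369 and 336 CPM against 182 to 307, and the small Cajal body RNAs 103 and 121 CPM against 40.4 to 71.9. The small nucleolar RNAs, at 663 and 769 CPM, lay within the 397 to 834 CPM of the others. The part of these shifts in the snRNA values of that group was not tested.

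U7 had 0.904 and 0.545 CPM in Su(var)3-9 at St7-8 against 0.273 and 0.146 CPM in wm4h (1.78 ± 0.69, adjusted p = 0.0818 by edgeR; 1.40 ± 0.88 without wm4h St7-8 replicate 2), and 0.126 to 0.470 CPM in all other libraries. LU, the only member that failed the filter on low counts, had 168 counts (3.21 CPM) in wm4h NC14 replicate 1, and at most 0.0896 CPM in the other 15 libraries. Its overlapping host FASN2 was called in no mutant comparison.

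**Figure D4:**
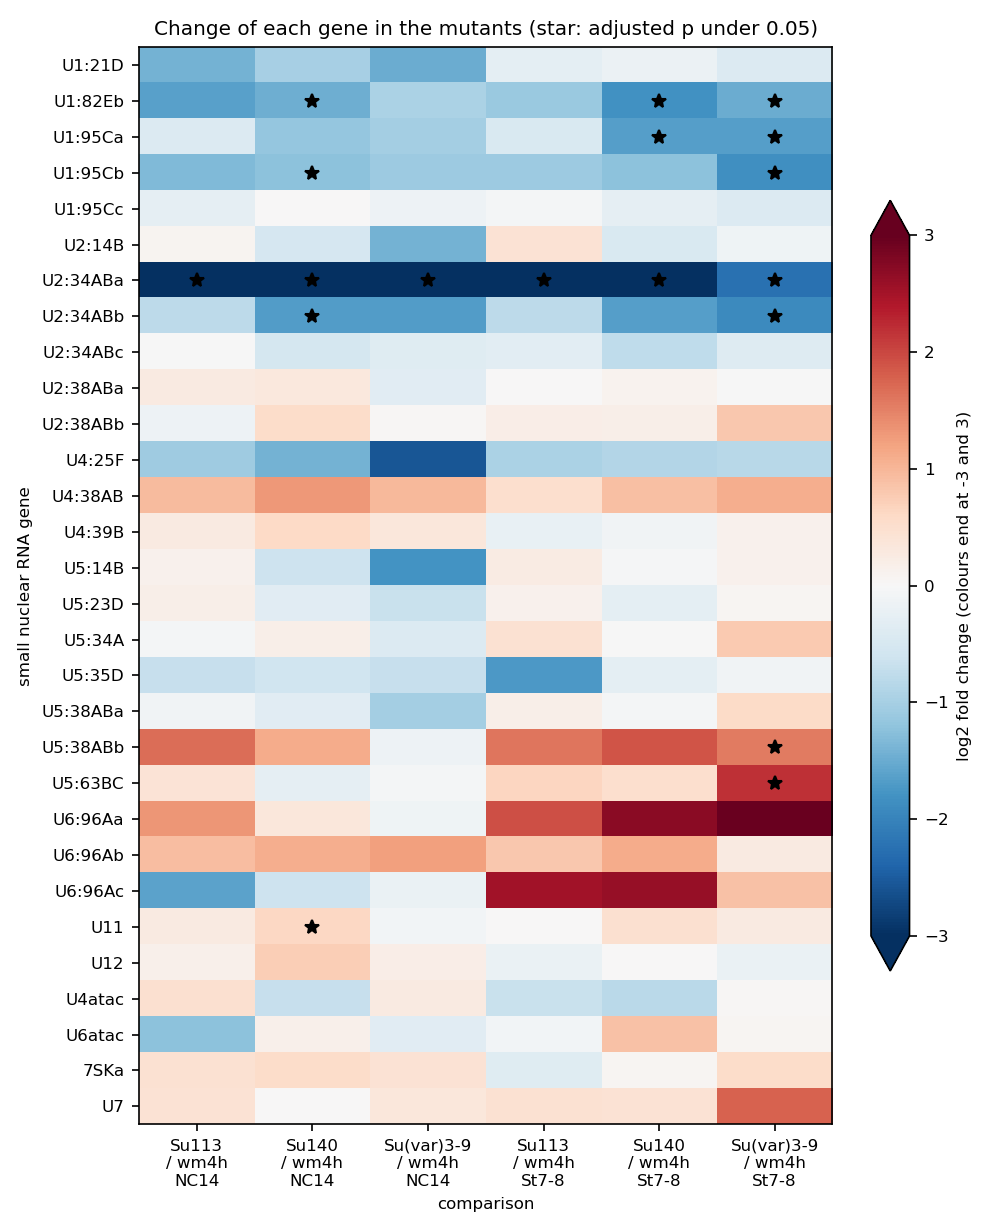
Log2 fold change of the 30 tested snRNA genes (rows, by class) in the 3 mutants against wm4h at NC14 and at St7-8 (columns); blue is lower and red higher in the mutant, and a star marks an adjusted p under 0.05 by edgeR. The row of U2:34ABa is called in all 6 columns, from -6.86 to -2.25, and the other stars lie in Su140 and Su(var)3-9.

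Over all members, 15 of the 30 tested had a positive log2 fold change in Su113 and 14 in Su140 at NC14, and 8 in Su(var)3-9. Their median was 0.03, -0.30 and -0.33, against 0, -0.03 and 0 over all genes tested. At St7-8 the median was -0.02 in Su113, -0.04 in Su140 and 0.06 for Su(var)3-9, against -0.09, -0.05 and 0.04 over all genes. Of the 30, 11 passed the test in at least 1 of the 12 comparisons, as did 57.2% of all genes, and 8 of these between a mutant and wm4h, as did 32.9% of all genes. Neither allele contrast (Su113 against Su140) called a member by edgeR, with 3.08% of all genes called at NC14 and 2.4% at St7-8. In each of them 2 members had an unadjusted p under 0.05, and DESeq2 called 1. For the change of a mutant effect between stages edgeR called 0 members, with 3, 0 and 3 at an unadjusted p under 0.05 in Su113, Su140 and Su(var)3-9 and 0.0887%, 0.274% and 1.84% of all genes called; DESeq2 was not run on this contrast.

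Between stages most log2 fold changes were negative, except in Su(var)3-9, and few passed the test. In Su113 26 of 30 and in Su140 25 of 30 log2 fold changes were negative, with medians of -0.30 and -0.44 against -0.03 and 0.07 over all genes. In wm4h 21 of 30 were negative and the median was -0.39, against 0.08, while in Su(var)3-9 15 of 30 were negative and the median was 0.04. In Su113 1 member was called, U5:14B, a U5 copy on the X (FBgn0003933, X:16254008-16254117, minus strand), with 21.8% of all genes called. It had 3.69 and 5.05 CPM at St7-8 against 12.3 and 12.5 CPM at NC14 (-1.51 ± 0.45, adjusted p = 0.0373 by edgeR). The U5 sum fell with it (-1.04 ± 0.33, adjusted p = 0.0426). Both calls ended without any 1 of the 4 libraries (U5:14B -1.61 to -1.30, adjusted p of 0.113 to 0.231; the sum -1.11 to -0.87, 0.136 to 0.268).

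In Su140 1 member was called between stages, U5:34A (FBgn0003935, 2L:13244848-13244974, plus strand), with 33.6% of all genes called. It had 1.03 and 2.09 CPM at St7-8 against 4.23 and 3.02 CPM at NC14 (-1.21 ± 0.41, adjusted p = 0.0407 by edgeR), a call that ended without either NC14 library or St7-8 replicate 1 (-1.34 to -0.64, 0.121 to 0.315). Within Su(var)3-9 3 were called, U2:34ABa, 7SKa and U1:95Cb as given above, with 22.9% of all genes called. In wm4h no member and 0% of all genes were called by edgeR, 8 members had an unadjusted p under 0.05, and DESeq2 called 1. The wm4h contrast holds the St7-8 library with NC14-like levels of cellularization genes. U5:14B had 2.95 and 4.40 CPM at St7-8 against 14.4 and 8.10 CPM at NC14 there, in the direction of Su113.

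**Figure D5:**
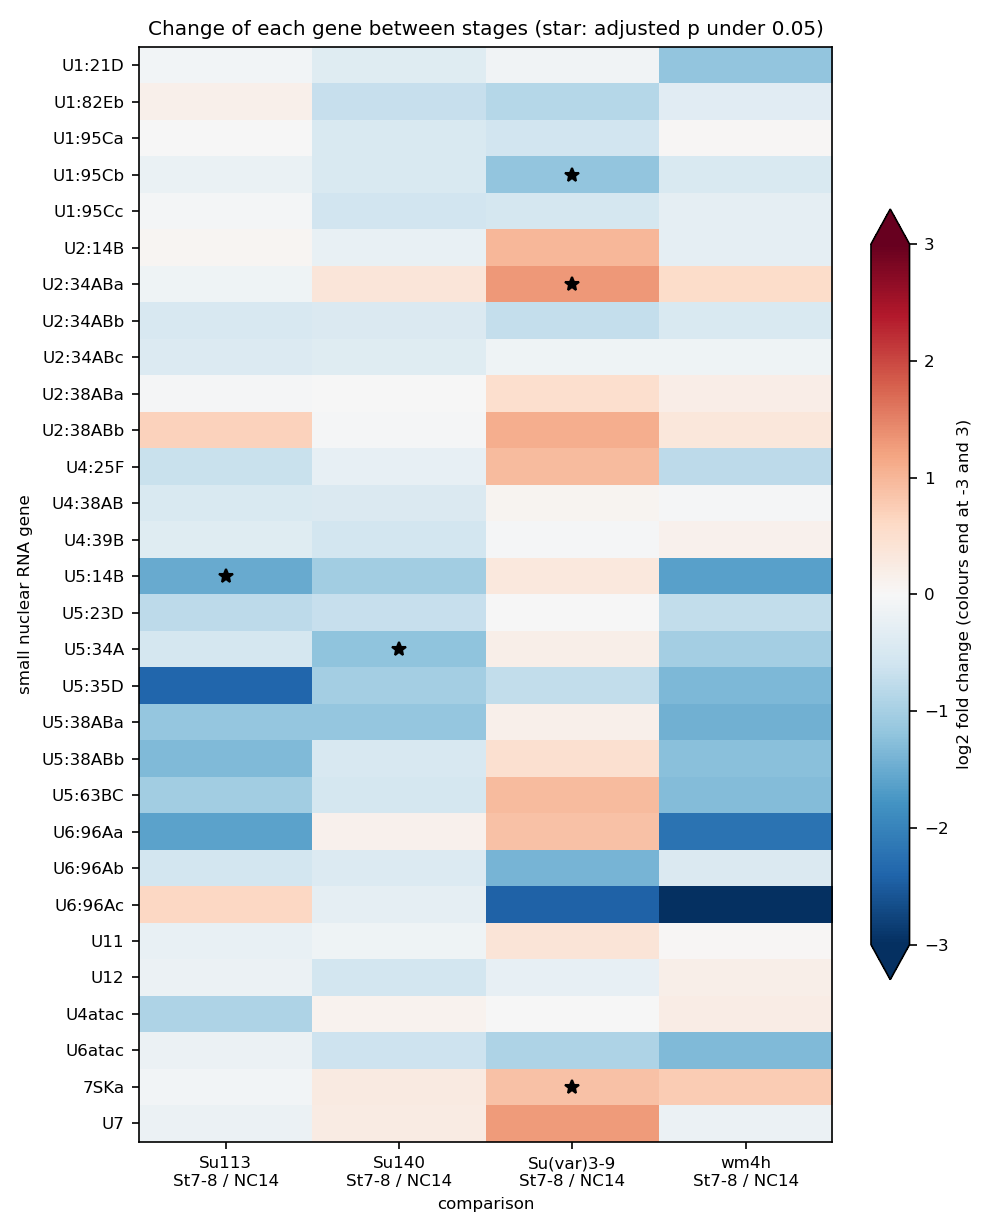
Log2 fold change of the 30 tested snRNA genes (rows, by class) from St7-8 against NC14 in the 4 genotypes (columns); blue is lower and red higher at St7-8, and a star marks an adjusted p under 0.05 by edgeR. The 5 stars are U5:14B in Su113, U5:34A in Su140, and U1:95Cb, U2:34ABa and 7SKa in Su(var)3-9.

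Copies of a class did not all move together. The Pearson correlation of log2 CPM between copies was taken over the 16 libraries. Its median was 0.60 for the 10 pairs of U1, 0.53 for the 21 pairs of U5 and 0.13 for the 15 pairs of U2. For the 3 pairs of U4 it was 0.09 (-0.3 to 0.77), and for the 3 pairs of U6 0.52. The 6 pairs within the minor class, which are of different RNAs, had a median of 0.05. Over 376 pairs of different classes the median was 0.10. These libraries share genotype, stage and scaling, and the values are a description.

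Not every symbol on the lists of proteins that bind, make or carry these RNAs matched the annotation. Of the Sm and Lsm genes 13 of 17 did, and of the minor snRNP genes 2 of 9. The lists held 78 tested genes. In Su113 edgeR called 0 of them at NC14 (16 with an unadjusted p under 0.05, and 10 called by DESeq2) and 2 at St7-8, and in Su140 5 and 1. In Su(var)3-9 it called 0 at NC14 (16 with an unadjusted p under 0.05, and 9 called by DESeq2) and 22 at St7-8. Of all genes 0.936% were called in Su113, 9.56% in Su140 and, for Su(var)3-9, 0.331% at NC14, and 2.85%, 1.15% and 24.8% at St7-8. Without wm4h St7-8 replicate 2 the St7-8 counts of proteins were 0, 0 and 6. In the Sm and Lsm ring proteins (12 tested), LSm7 of the U6 ring had 2.25 ± 0.428 CPM in Su140 against 6.21 ± 0.574 CPM in wm4h at NC14 (SD, n = 2 each; -1.47 ± 0.28, adjusted p = 0.0105 by edgeR). It also fell in Su140 at St7-8 (3.33 ± 0.0267 against 9.22 ± 1.21 CPM; -1.47 ± 0.28, adjusted p = 0.0303). The core protein SmB rose in Su140 at NC14 (0.54 ± 0.16, adjusted p = 0.0494) and in Su(var)3-9 at St7-8 (0.75 ± 0.16, adjusted p = 0.00577). Lsm11, a part of the U7 particle, fell in Su(var)3-9 at St7-8 (-1.08 ± 0.35, adjusted p = 0.0418). The median log2 fold change of this list was -0.57 in Su113, -0.42 in Su140 and -0.50 for Su(var)3-9 at NC14, against 0, -0.03 and 0 over all genes tested.

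Of 24 proteins of the major snRNPs, 2 rose in Su(var)3-9 at St7-8, as did 8.94% of all genes, with a median over the list of 0.17 against 0.04 over all genes. These were U2A, which sits on the U2 particle (19.7 ± 3.65 against 10.2 ± 4.27 CPM; SD, n = 2 each; 0.95 ± 0.32, adjusted p = 0.0457 by edgeR), and U4-U6-60K (0.50 ± 0.17, adjusted p = 0.0478). Of 2 tested genes on the list for the minor snRNPs, CG4119 fell in Su(var)3-9 at St7-8 (103 ± 15.2 against 244 ± 79.2 CPM, log2 fold change -1.25 ± 0.21, adjusted p = 0.00188 by edgeR).

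Transcription and 3′ processing factors (20 tested) gave 2 higher in Su140 at NC14 and 4 higher and 6 lower in Su(var)3-9 at St7-8, with medians of 0.22 and -0.24 against -0.03 and 0.04 over all genes. Over all genes 8.94% were called higher and 15.9% lower in Su(var)3-9 at St7-8, and in Su140 at NC14 3.02% were called higher. The Integrator subunit IntS6 had 341 ± 47.4 CPM in Su140 against 155 ± 20.8 CPM in wm4h at NC14 (SD, n = 2 each; 1.13 ± 0.18, adjusted p = 0.00554 by edgeR), and IntS11, its endonuclease, rose by 0.62 ± 0.18 (0.0487). In Su(var)3-9 at St7-8 IntS1 rose (1.23 ± 0.25, 0.00488), as did the Integrator subunit defl (1.15 ± 0.23, 0.00477), while Pbp95, a subunit of the factor that binds snRNA promoters, fell (-1.35 ± 0.29, 0.00598).

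Of 20 tested genes of assembly, transport and modification, 3 rose and 4 fell in Su(var)3-9 at St7-8, against 8.94% higher and 15.9% lower over all genes, with a median of -0.19 against 0.04. Hexim, which holds P-TEFb on 7SK, had 5.84 ± 3.10 CPM there against 70.1 ± 38.6 CPM in wm4h (SD, n = 2 each; -3.59 ± 0.49, adjusted p = 0.000654 by edgeR). The Gemin5 homologue rig fell (-2.01 ± 0.28, 0.000697), and vls, a partner of the methyltransferase that modifies Sm proteins, rose (1.22 ± 0.23, 0.00372). That methyltransferase, csul, rose in Su140 at NC14 (0.61 ± 0.15, 0.0244). In Su113 at St7-8 Cbp80, which binds the RNA cap, and CG16790 fell (-0.61 ± 0.15 and -1.09 ± 0.26, each 0.0497).

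Of these 19 named calls of proteins, 5 held without each library of their comparison in turn, namely SmB, CG4119, IntS1, Hexim and rig in Su(var)3-9 at St7-8. Without wm4h replicate 2 of that stage those of Lsm11, U2A, U4-U6-60K, defl, Pbp95 and vls in Su(var)3-9, of LSm7 in Su140 and of Cbp80 and CG16790 in Su113 ended. The log2 fold changes in Su(var)3-9 were then -0.37 for Lsm11, 0.58 for U2A, 0.36 for U4-U6-60K, 0.87 for defl, -0.85 for Pbp95 and 1 for vls. Those of the 5 that held were 0.79 for SmB, -0.88 for CG4119, 0.88 for IntS1, -2.88 for Hexim and -1.48 for rig. LSm7 stood at -1.33 in Su140, and Cbp80 and CG16790 at -0.53 and -0.98 in Su113. Without wm4h NC14 replicate 1 the NC14 calls of LSm7, SmB, IntS6, IntS11 and csul in Su140 ended. Other single libraries also ended all of these but IntS6, defl, Pbp95 and vls.

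Between stages edgeR called 18 of the 78 protein genes in Su113, 32 in Su140 and 17 within Su(var)3-9, with 21.8%, 33.6% and 22.9% of all genes called. In wm4h it called 0, with 13 at an unadjusted p under 0.05 and 4 called by DESeq2. Of the 24 proteins of the major snRNPs 9 were lower at St7-8 in Su113, as were 9.67% of all genes, among them Prp8, the core protein of U5 (839 ± 99.3 CPM at St7-8 against 1300 ± 27.4 CPM at NC14; SD, n = 2 each; -0.63 ± 0.15, adjusted p = 0.0194 by edgeR). The list's median there was -0.48 against -0.03 over all genes. In Su140 11 of 20 assembly and transport genes were lower at St7-8 and 1 was higher, against 16% lower and 17.6% higher over all genes, with a median of -0.62 against 0.07. The higher one was La, which binds the 3′ ends of polymerase III transcripts (46.6 ± 1.22 against 14.1 ± 1.27 CPM; 1.72 ± 0.26, adjusted p = 0.00223). La was also higher in Su113 (1.64 ± 0.26, 0.00424). Within Su(var)3-9 icln, which chaperones Sm proteins, was lower at St7-8 (8.37 ± 0.488 against 23.5 ± 0.731 CPM; -1.49 ± 0.28, adjusted p = 0.00397). The calls of La in Su140 and of icln held without each library in turn. That of La in Su113 ended without either NC14 library, and that of Prp8 without either NC14 library or St7-8 replicate 2. Among the stage calls with the smallest adjusted p in each list, most ended when some library was left out.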

How the data were processed

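Whole-number counts per gene for 16 libraries were deposited by the authors, unnormalised, in 1 table. Libraries came from an Illumina TruSeq Stranded Total RNA kit, per the labels' protocols. The build dm6 and DESeq2 are named in the submitters' processing notes, and the aligner, counting tool, strand setting and annotation release are not given in the sources used here. Symbols and positions came from Ensembl release 115 (BDGP6.54, dm6), which matched 17626 of 17753 identifiers.

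The rest was computed with R 4.3.3, edgeR 4.0.16 and DESeq2 1.42.0, and figures with matplotlib 3.10.9. filterByExpr kept 12398 genes. TMM scaling and 1 edgeR quasi-likelihood fit of 8 group means (8 residual degrees of freedom, common biological coefficient of variation 0.401) gave two-sided tests, adjusted by Benjamini-Hochberg over all genes at a threshold of 0.05. For class sums, the counts of a class replaced its copies in the same fit (12379 rows). Levels are CPM and changes log2 fold changes ± SE. With pools as replicates, p-values cover only how far these samples varied, which may be technical variation. The dispersion of a gene was common to all groups, although the SD of the log2 difference between replicates was 0.924 to 1.55 at St7-8 and 0.567 to 0.852 at NC14. No pair of libraries agreed within sampling noise (chi-square per gene of 22.8 or more). The steps were also run on simulated counts with known changes. These had less spread than the real libraries, and only genes of higher counts were changed. The outcome therefore does not cover the spread of these data or members with low counts.

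The genes, protein lists and rules were chosen with earlier results of these data known. The text names each snRNA gene past the threshold with its values, the others by range, and the overlapping host genes. It also gives the gene most like a called member (3 for U2:34ABa). Protein genes are named for each mutant against wm4h, up to 3 per list by adjusted p. Between stages only some of the genes chosen by this rule are named, and in the other contrasts none. Contrasts between the Jasper alleles and Su(var)3-9, and the U2 sum without U2:34ABa, were added after the values were seen. Alternatives changed the scaling, the filter, the test (DESeq2), a replicate block, the libraries in the fit and each library in turn.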

Additional observations from a re-analysis of the deposited data

How the results depend on the processing

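Of 37 calls named for single genes and class sums, 8 held under every alternative run and 29 ended under some, and none changed direction. The 8 included U2:34ABa in Su113 at both stages, in Su140 at NC14 and, at St7-8, in Su(var)3-9. Of 21 results without a call, 10 gained one in some alternative. The number of snRNA genes called changed by more than 1.5 times as follows, and the cause was not tested. With DESeq2's Wald test it was 5 in Su113 (against 1), 8 in Su(var)3-9 (1) and 1 between the alleles (0) at NC14, and 3 in Su113 (1), 7 in Su140 (3) and 1 between the alleles (0) at St7-8. Between stages it was 2 in Su113 (1), 5 in Su(var)3-9 (3) and 1 in wm4h (0). With the libraries of the same stage alone it was 3 in Su113 (1), 5 in Su(var)3-9 (1) and 1 between the alleles (0) at NC14, and at St7-8 0 in Su140 (3) and 4 in Su(var)3-9 (7), and with those of the same genotype alone 0 between stages in Su113 (1). With DESeq2 size factors it was 1 in Su140 at St7-8 (3) and 0 between stages in Su113 and in Su140 (1 each), and with no filter 0 in both of these. Without the second St7-8 libraries it was, at St7-8, 1 in Su140 (3) and 3 in Su(var)3-9 (7), and 0 in Su113 and 2 in Su140 between stages (1 each).

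Leaving out single libraries gave 1 to 2 calls in Su140 (5) and 0 to 1 in Su(var)3-9 (1) at NC14, and at St7-8 1 to 3 in Su140 (3), 2 to 6 in Su(var)3-9 (7) and 0 to 1 between the alleles (0). Between stages it gave 0 in Su113 (1), 0 to 2 in Su140 (1), 0 to 2 in Su(var)3-9 (3) and 0 to 1 in wm4h (0). Where this left 1 library in a group, that library was assumed to vary like the other groups.

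Whether the replicate numbers pair the samples is not stated in the labels. The correlation of the deviations of same-numbered libraries was -0.50 to 0.33 over 12 contrasts, and over 0.1 in 2. It was highest for Su113 against Su140 at St7-8. A replicate block gave 1, 4 and 1 calls at NC14 and 1, 2 and 7 at St7-8 in Su113, Su140 and Su(var)3-9, and 0, 0, 3 and 0 between stages in Su113, Su140, Su(var)3-9 and wm4h. Of the calls of the U2 sum, the block ended that in Su(var)3-9 at NC14 (-1.51, adjusted p = 0.0705 by edgeR). Low counts limit the U6 copies, U6atac, U2:38ABb, U5:35D, U7 and LU, whose medians were 1 to 27 counts per library.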
